A study of Mus musculus with 44 samples.

Results

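This section describes the m6A peaks at the Zfp and Zbtb genes, the mouse loci whose symbols begin with Zfp or Zbtb and which mostly encode zinc finger proteins, in the liver of mice exposed to polychlorinated biphenyls. Members were all identifiers in the 8 deposited peak lists whose RefSeq symbol begins with Zfp or Zbtb, which gave 34 loci of 1419 and 500 peaks of 17573. Symbols were assigned by position on either strand, so the member at Zfp280d is an antisense identifier. Of the 34 loci, 8 were Zbtb and 26 were Zfp genes. All animals were male C57Bl/6J mice, an inbred strain, kept on high-fat chow (42% of kcal as fat). The 4 groups received vehicle, Aroclor1260 (a commercial mixture of highly chlorinated biphenyls), PCB126 (a coplanar congener and strong ligand of the aryl hydrocarbon receptor) or both compounds, as 1 oral exposure at week 2 of a 12-week study. Doses were not used here. Each treatment had 5 m6A immunoprecipitates, 5 input libraries and 1 pooled IgG immunoprecipitate from whole liver RNA, 44 libraries in all.

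N6-methyladenosine (m6A) is laid down on messenger RNA by a methyltransferase complex that favours long exons and the region around the stop codon, and reader proteins use it to steer the splicing, translation and decay of the transcript. Most proteins of the Zfp group carry arrays of C2H2 zinc fingers, each folded around a zinc ion, with which they bind DNA or RNA. Many of them add a KRAB domain, which recruits the corepressor Trim28 and silences transposable elements and genes. Zbtb proteins join C2H2 fingers to a BTB domain, through which they dimerise and bind corepressors. Both groups include factors that work in many tissues, the liver among them.

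The measure is the peak: a stretch of a transcript where the m6A libraries of 1 treatment exceeded a reference, either the input libraries of that treatment or its IgG library. Each list was called over a whole treatment, so no locus has a value per animal, no spread between mice could be measured and no test across mice was possible. The fold enrichment quoted for a peak is the authors' linear ratio of m6A over reference. Read depth is unknown, and the lists differed in length, from 506 to 2284 peaks against input and from 2082 to 4129 against IgG. A peak also needs reads at the transcript, and in whole liver RNA fewer cells of a type and less RNA per cell cannot be told apart. The same control lists served all exposures.

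Nearly all of these loci were seen on the plus strand, which limits what an absent gene means. Of 441 protein-coding Zfp and Zbtb genes in the RefSeq table, all but 72 had a known strand. Among the 181 on the plus strand, 26 (14.4%, Wilson 95% interval 9.995 to 20.2%) had a peak on their own strand in any list. Among the 188 on the minus strand, 0 had one, with a Wilson upper bound of 2.00%. Over all protein-coding genes the shares were 11.2% of 8730 plus-strand and 0.217% of 8762 minus-strand genes. The absence of a minus-strand Zfp or Zbtb gene therefore says nothing about its methylation. Within the members, 97.8% of the 500 peaks lay on the plus strand, against 95.2% of all peaks. The 11 minus-strand peaks came from 2 identifiers, at Zfp280d and at Zfp703. The Zfp280d gene is on the plus strand, so its 4 peaks belong to an antisense identifier and not to the zinc finger transcript. Naming was by position, so this identifier remains in the member counts below. With plus-strand identifiers only, 27 members had a peak after PCB126 against input.

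**Figure D1:**
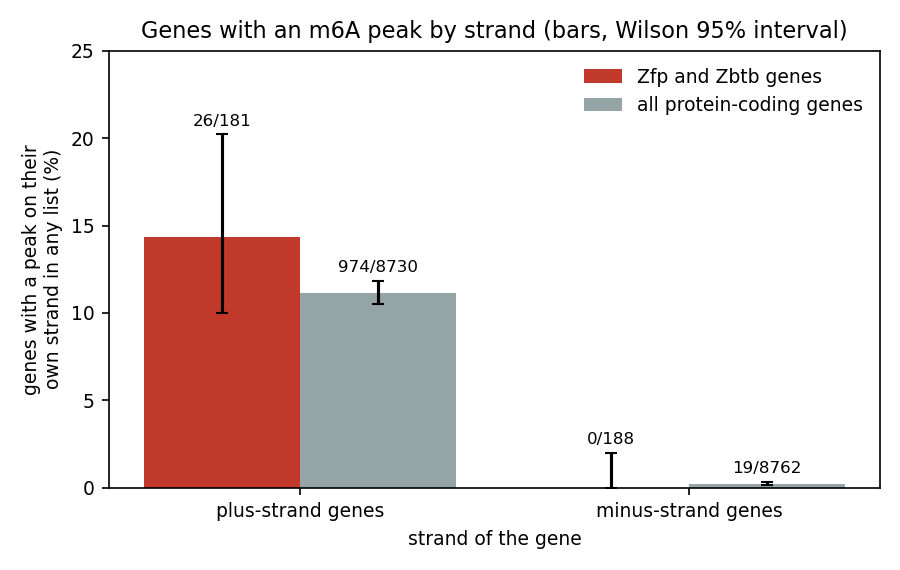
Share of genes (y axis, percent) with a peak on their own strand in any of the 8 lists, for plus- and minus-strand genes (x axis), with Wilson 95% intervals; red bars are Zfp and Zbtb genes and grey bars all protein-coding genes. Peaks were found at 26 of 181 plus-strand and 0 of 188 minus-strand Zfp and Zbtb genes.

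The IgG-referenced folds of these loci lay on coarse steps. Of the member folds below 10, 226 of 275 (82.2%) in the IgG lists were whole multiples of 0.2, against 41 of 195 (21.0%) in the input lists. Over all peaks the shares were 61.7% and 14.4%. The tolerance was 1e-06. The reads behind each peak were not used here, and the source of the steps was not tested.

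Against input, peaks were called at 28 of the 34 loci after PCB126 and at 20 after the combination, beside 7 in the control and 7 after Aroclor1260. The member shares were 82.4%, 58.8%, 20.6% and 20.6% in that order, and the shares of all loci were 48.5%, 50.6%, 18% and 16.1%. Against IgG, members with a peak numbered 31 for PCB126 and 24 for the combination, or 91.2% and 70.6%, beside 77.4% and 70% of all loci. The control had 14 and Aroclor1260 had 12 (41.2% and 35.3%), beside 42.1% and 42.4% of all loci. The members therefore stood near the background in the control, Aroclor1260 and IgG-referenced combination lists, and their share was above it after PCB126 with either reference. This is a description, since the loci were chosen from these lists. With the lists cut to an equal number of 506 peaks, the PCB126 count was 15 when peaks were ranked by fold (44.1% beside 27.6% of all loci) and 6 when ranked by p-value (17.6% beside 15.4%). For the combination it was 13 by fold (38.2% beside 26.7%) and 0 by p-value (14.9% of all loci). The PCB126 share was therefore near the background when ranked by p-value. In the combination list the lowest log10 p of a member was -8.45, at Zbtb22, whereas the 506th peak by p-value had -9.4, so no member was kept. The 6 members kept in the PCB126 list were Zbtb1, Zbtb18, Zbtb22, Zfp280d, Zfp703 and Zfp771. Ranking by fold was chosen after seeing the data.

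**Figure D2:**
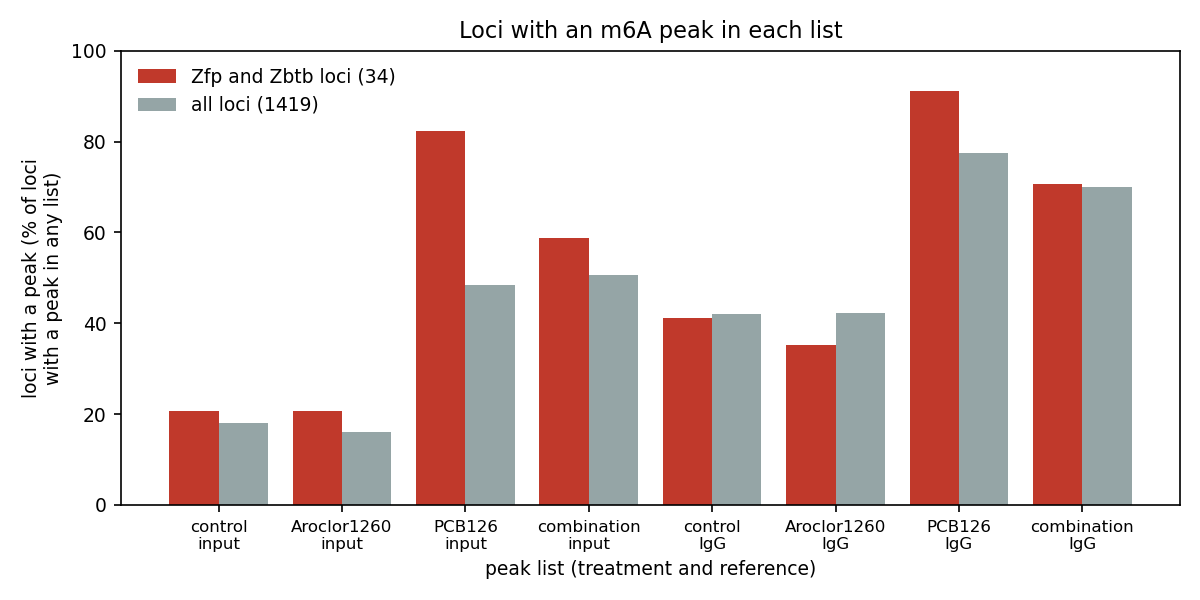
Share of loci with a peak (y axis, percent of loci with a peak in any list) in each of the 8 lists (x axis); red bars are the 34 Zfp and Zbtb loci and grey bars all 1419 loci. The member share is above that of all loci after PCB126, at 82.4% and 91.2%, and close to it in the control.

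Fold enrichment of the members is set beside that of all peaks. Their median fold against input was 2.96 in the control (95% order-statistic interval 2.00 to 3.42), 2.13 for Aroclor1260 (1.94 to 2.39), 2.6 for PCB126 (2.2 to 3.14) and 3.00 for the combination (2.37 to 3.67). The medians over all peaks of those lists were 2.32, 2.135, 2.45 and 2.4. Against IgG the member medians were 3.4, 3.2, 3.8 and 3.8, beside 2.7, 2.615, 3.3 and 3.2. A member locus with a peak had 2.71, 3.57, 3.46 and 3.1 peaks in the 4 input lists on average, beside 2.43, 2.21, 3.17 and 3.18 over all loci.

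**Figure D3:**
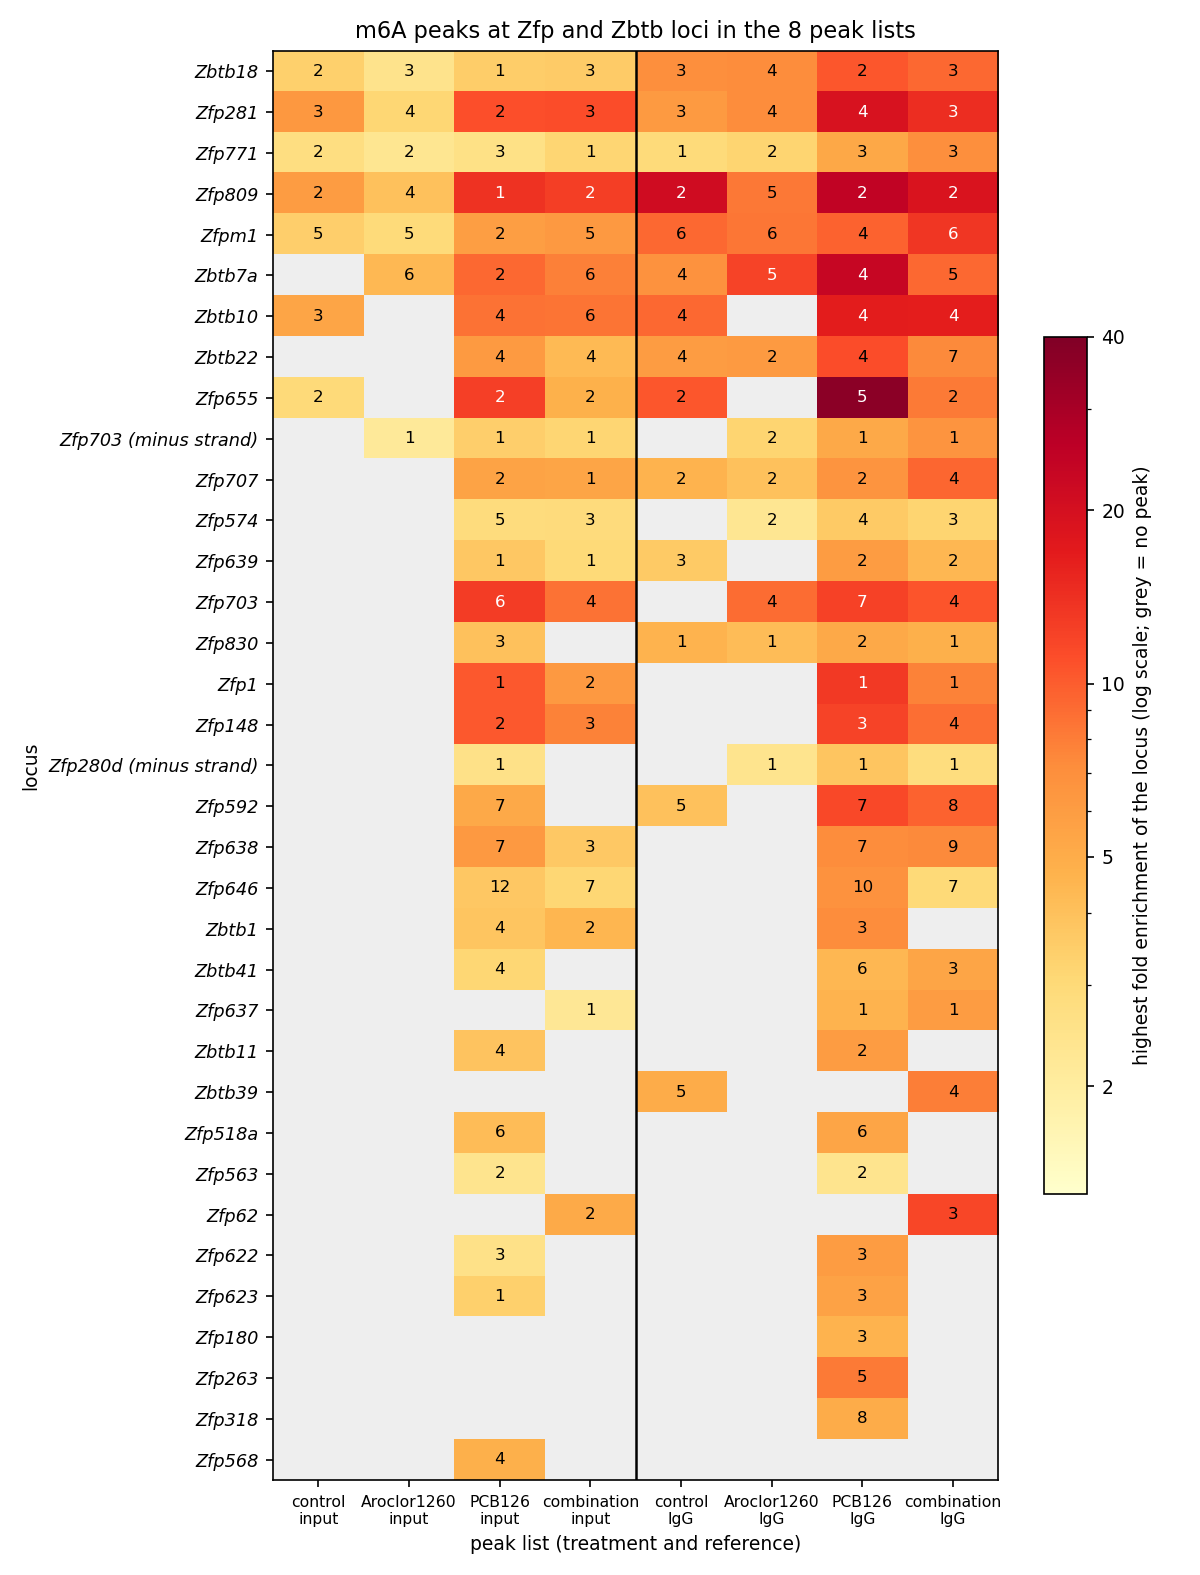
Number of m6A peaks (figures in the cells) and highest fold enrichment (colour, log scale; grey marks no peak) for each locus (y axis) in the 8 lists (x axis). The top 5 loci have a peak in all 8 lists, and the lower rows are filled mainly in the PCB126 columns.

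A group of 5 loci had peaks in all 8 lists, namely Zbtb18, Zfp281, Zfp771, Zfp809 and Zfpm1, which is 14.7% of the members beside 9.94% of all loci. Zfp281 encodes a GC-box-binding factor that restrains the pluripotency programme in stem cells. Its main peaks lay on chromosome 1 between 136625815 and 136627959. Against input the highest fold there was 6.33 (control), 3.12 (Aroclor1260), 11.0 (PCB126) and 11.2 (combination), and against IgG 6.2, 7.2, 19.2 and 14.4. With either reference the values after PCB126 and the combination were above the other 2. Zfp809 encodes the KRAB protein that recognises the primer binding site of murine leukaemia viruses and silences them. Its main merged region, joining overlapping peaks of all lists, ran on chromosome 9 from 22236257 to 22239874, with input folds of 6.00, 4.00, 13.8 and 12.6 in the same order of treatments. The Zfp809 folds against IgG were 21.2, 8.3, 24.4 and 18.8, so there the control was close to the PCB126 value. After PCB126 the whole Zfp809 region was called as 1 peak against input, and after Aroclor1260 as 4 smaller ones.

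Zbtb18 encodes RP58, a repressor needed in neuronal development. Its region on chromosome 1 from 177447172 to 177448619 had input folds of 3.4 (control), 2.45 (Aroclor1260), 3.5 (PCB126) and 3.58 (combination), and IgG folds of 7.0, 7.2, 10.4 and 9.2. Zfpm1 encodes FOG1, the partner of GATA factors in blood cell development. Its largest region lay at chromosome 8 from 122323796 to 122337251, ending 611 bases before the end of the gene. Input folds there were 3.42, 2.92, 5.83 and 6.23, and IgG folds 9.2, 8.4, 9.6 and 13.4. Zfp771 had its constant peak at chromosome 7 from 127253872 to 127254313, 559 bases before the gene's end, with input folds of 2.75, 2.00, 2.6 and 3.18 and IgG folds of 2.93, 3.2, 5.3 and 5.6. In all 5 loci the Aroclor1260 value against input was the lowest of the 4 in the shared region. Against IgG it was the lowest at Zfp809 and Zfpm1 only, and the control was lower at Zbtb18, Zfp281 and Zfp771. These folds came from separately called lists and are given side by side, with no claim of change.

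Aroclor1260 was compared with the control first. Gained loci had peaks after exposure while the control had 0, and lost loci the opposite. Against both references, 2 of 34 members (5.88%) lost their peaks, beside 1.76% of all loci, and 1 gained one, beside 0.987%. Against input alone there were 2 lost (6.41% of all loci were) and 2 gained (4.58%), and against IgG 5 lost (12.5%) and 3 gained (12.8%). The lost loci with both references were Zbtb10 and Zfp655. Zbtb10 encodes a repressor of Sp transcription factor genes. Its peaks lay in 3 regions on chromosome 3. The strongest against input, from 9280386 to 9281154, had input folds of 5.44 in the control, 8.67 after PCB126 and 8.56 after the combination, and 0 peaks after Aroclor1260. Against IgG the same region had 6.00, 16.6 and 16.4, and again 0 peaks after Aroclor1260. A second merged Zbtb10 region, from 9251796 to 9265394, included peaks of 2 blocks and reached 5.11, 4.67 and 7.56 against input in those 3 lists. Against IgG this second region reached 9.2 in the control, 6.6 after PCB126 and 5.4 after the combination, so there the control was highest.

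Zfp655, a KRAB zinc finger gene, showed the same absence after Aroclor1260. Its region on chromosome 5 from 145242954 to 145245003 had input folds of 2.96 in the control, 12.4 after PCB126 and 4.72 after the combination. Against IgG the Zfp655 folds were 10.4, 36.8 and 8.2, the 36.8 being the highest member fold in any list. The order of control and combination thus differed between the references at this locus. Against IgG alone, Aroclor1260 also lacked the control peaks of Zbtb39, Zfp592 and Zfp639.

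Zbtb7a and Zfp703 were the members gained with Aroclor1260 against input. Zbtb7a encodes LRF, a repressor of fetal globin genes and of glycolytic genes. Against input it had 6 peaks up to 4.36 with Aroclor1260, 2 up to 9.27 with PCB126 and 6 up to 7.91 with the combination, and 0 in the control. Against IgG the control had 4 Zbtb7a peaks up to 6.8, so the gain was not seen with that reference. The strongest Zbtb7a peaks lay in a merged region on chromosome 10 from 81138064 to 81148644.

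Zfp703 encodes a corepressor of the NET family that is amplified in some breast tumours. It was the only member gained with all 3 exposures against both references, counted by place. On the plus strand it had 6 peaks up to 12.7 after PCB126 and 4 up to 8.67 after the combination against input, and 0 in the control and after Aroclor1260. Against IgG the plus-strand identifier also had 4 peaks up to 9.0 after Aroclor1260, 7 up to 12.2 after PCB126 and 4 up to 10.6 after the combination, and 0 in the control. The strongest Zfp703 peak against input after PCB126 spanned chromosome 8 from 26979466 to 26980115, 1347 bases before the end of the gene. The Aroclor1260 peak against input belonged to the minus-strand identifier, with a fold of 2.14, and this identifier had 3.43 and 3.18 in the PCB126 and combination lists. Its blocks lie within the span of Zfp703, and the table gives no strand for that gene, so reads of the 2 identifiers cannot be told apart here. With plus-strand identifiers only, 1 member, Zbtb7a, was gained with Aroclor1260 against input.

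PCB126 was then compared with the control. Against both references 14 of 34 members (41.2%) gained a peak, beside 15.1% of all loci, and 0 lost one, beside 0.141%. The 14 include the antisense identifier at Zfp280d. Against input alone 21 were gained (31.8% of all loci were) and 0 lost (1.27%), and against IgG 18 were gained (40.1%) and 1, Zbtb39, was lost (4.79%). With plus-strand identifiers only, 20 members were gained against input. With equal list lengths the count against input went to 10 gained by fold (29.4% beside 14.9% of all loci) and to 4 by p-value (11.8% beside 9.37%, near the background). For the combination, 8 members (23.5%) were gained against both references, beside 14.2% of all loci, with 13 against input (33.8%) and 10 against IgG (33.3%). No member was lost with the combination with either reference, where 1.2% and 5.29% of all loci were, and 0.211% with both. Equal list lengths left 8 gained with the combination by fold (23.5% beside 13.5% of all loci) and 0 by p-value (9.94% of all loci were). The same lists also gave losses. By p-value 4 members were lost with PCB126 (11.8% beside 9.23%) and 6 with the combination (17.6% beside 10.4%), and by fold 2 with each (5.88% beside 3.88% and 3.38%). Losses by p-value thus equalled the gains for PCB126 and exceeded them for the combination. The combination's shares against a single reference were close to the background of all loci.

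Of the 14 members gained with PCB126, 6 were also gained with the combination against both references, namely Zfp1, Zfp148, Zfp574, Zfp638, Zfp646 and Zfp703. The same overlap was not computed over all loci, so this count has no background and cannot be read as particular to the members. Zfp148 encodes ZBP-89, a GC-box-binding paralog of Zfp281. Its strongest peak had the same bounds in every list that held it, chromosome 16 from 33496726 to 33496926. The Zfp148 fold there was 10.3 after PCB126 and 7.81 after the combination against input, and 12.1 and 8.87 against IgG. There were 0 Zfp148 peaks in the control and after Aroclor1260 with either reference. Zfp1 had 1 region, on chromosome 8 from 111669569 to 111670215, with input folds of 10.3 after PCB126 and 6.25 after the combination and IgG folds of 13.0 and 7.8. That region ended 893 bases before the last base of the gene. At both genes the PCB126 fold was above the combination fold with either reference.

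Zfp638 encodes NP220, a nuclear RNA- and DNA-binding protein that promotes fat cell differentiation and takes part in silencing unintegrated viral DNA. It had 7 peaks up to 6.29 after PCB126 and 3 up to 3.67 after the combination against input, and 7 up to 7.2 and 9 up to 7.4 against IgG. The strongest Zfp638 peak in both input lists ran on chromosome 6 from 83976407 to 83977305, and a second group lay about the middle of the gene, from 83928734 to 83930181. Zfp646 had more peaks against input than any other member, 12 after PCB126 up to 3.71 and 7 after the combination up to 3.12. The Zfp646 peaks formed 11 regions on chromosome 7 between 127876969 and 127883752. Zfp574 had 5 peaks up to 2.83 and 3 up to 2.89 against input. At Zfp574 a peak of 2.3 was also called after Aroclor1260 against IgG.

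Promoter windows are shown for the members of this group that the RefSeq promoter table (GRCm38.p6) holds, 3 of 6. PCB126 is a ligand of the aryl hydrocarbon receptor, whose complex binds DNA at the core motif GCGTG. Each run gives the 250 bases before a transcript start on the plus strand, with GCGTG or its reverse complement CACGC in capitals. The windows are chr16:33380525-33380774 for Zfp148 from its upstream start, chr6:83914103-83914352 for Zfp638 and chr8:111643193-111643442 for Zfp1. The Zfp638 gene span begins at 83867068, so its window lies inside the gene, before an internal transcript start. The other windows shown end just before the first base of their gene.
Zfp148: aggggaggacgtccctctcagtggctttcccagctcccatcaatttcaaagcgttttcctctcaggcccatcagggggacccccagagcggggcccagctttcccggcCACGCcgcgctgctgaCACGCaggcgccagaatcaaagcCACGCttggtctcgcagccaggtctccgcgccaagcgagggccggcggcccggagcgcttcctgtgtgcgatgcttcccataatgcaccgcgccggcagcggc
Zfp638: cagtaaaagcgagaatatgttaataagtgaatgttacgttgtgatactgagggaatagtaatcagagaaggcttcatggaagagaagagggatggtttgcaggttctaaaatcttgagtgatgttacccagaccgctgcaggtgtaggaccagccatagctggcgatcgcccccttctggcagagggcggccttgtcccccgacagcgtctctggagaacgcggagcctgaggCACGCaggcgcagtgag
Zfp1: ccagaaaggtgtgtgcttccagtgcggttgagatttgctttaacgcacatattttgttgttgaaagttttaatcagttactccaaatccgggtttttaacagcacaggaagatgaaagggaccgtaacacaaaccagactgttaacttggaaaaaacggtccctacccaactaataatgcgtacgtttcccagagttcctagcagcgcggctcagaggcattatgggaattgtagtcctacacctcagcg
The Zfp148 window held 3 matches, the Zfp638 window 1 and the Zfp1 window 0, and a window at a second Zfp148 start held 0. Over all genes in the table, 30.9% of 27025 had a match on either strand in such a window, and of all Zfp and Zbtb genes 36.8% of 375 did. Of the 27 member loci with an entry, 12 (44.4%) had a match. Of the 14 members gained with PCB126 against both references, 10 had an entry and 6 of these had a match. The 27 and the 10 include Zfp280d, where the window is that of the gene and not of the antisense identifier with the peaks. The share over all loci gained with PCB126 was not computed, so the member shares have no matching background. A match is a string of letters and does not show binding. Whether the receptor had any part in these peaks was not tested.

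PCB126 was the sole treatment with peaks, under both references, at 5 further loci: Zbtb11, Zfp518a, Zfp563, Zfp622 and Zfp623. Under both references, 5.14% of all loci had a peak in PCB126 and none in the combination, against 14.7% of the members. The reverse, a combination peak without a PCB126 one, was 4.86% against 1 member. These shares of all loci allow peaks in the control or after Aroclor1260. The share of all loci with peaks after PCB126 alone, or after the combination alone, under both references was not computed. Against input, 10 members had a PCB126 peak without a combination one (12.1% of all loci did) and 2 the reverse (14.2%). Against IgG the counts were 9 (22.6%) and 2 (15.3%). Zbtb11 encodes a factor needed for neutrophil development and for mitochondrial function. It had 4 peaks up to 3.86 against input and 2 up to 6.00 against IgG, the strongest on chromosome 16 from 56006866 to 56007265. Zfp518a had 6 peaks with each reference, up to 4.17 and 5.4, spread on chromosome 19 from 40912506 to 40916050. Zfp622 encodes a factor of large ribosomal subunit maturation, and had 3 peaks with each reference, up to 2.56 and 6.00. The Zfp622 peaks lay near the start of the gene, between 25984466 and 25986974 on chromosome 15, where the gene begins at 25984366. Zfp623 had 1 peak against input with a fold of 3.38, chromosome 15 from 75947859 to 75948008, which was called with the same bounds against IgG at 5.6. Zfp563 had 2 short peaks on chromosome 17, each with the same bounds and fold under both references, 2.2 and 2.4.

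Zbtb1, Zbtb41 and the antisense identifier at Zfp280d completed the PCB126 gains found with both references. Zbtb1 encodes a factor needed for lymphocyte development. Its highest input fold was 3.8 after PCB126 and 4.5 after the combination, and against IgG it was 7.2 after PCB126 with 0 peaks in the combination. Zbtb41 had 4 peaks up to 3.14 after PCB126 against input and 6 up to 4.4 against IgG, and in the combination it had 3 up to 5.4 against IgG only. At Zfp280d the antisense peak, chromosome 9 from 72361981 to 72362226, had 2.56 after PCB126 against input. It was also called after Aroclor1260 (2.4), PCB126 (3.8) and the combination (2.8) against IgG. Presence in the combination therefore depended on the reference at all of these loci.

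Zfp62 was the member found in the combination alone with both references. It had 2 peaks up to 5.14 against input and 3 up to 11.8 against IgG, the strongest on chromosome 11 from 49215141 to 49215439. Zfp637 was gained with the combination against both references too, with 1 peak of 2.25 against input and 6.00 against IgG, but PCB126 had a Zfp637 peak of 4.6 against IgG.

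**Figure D4:**
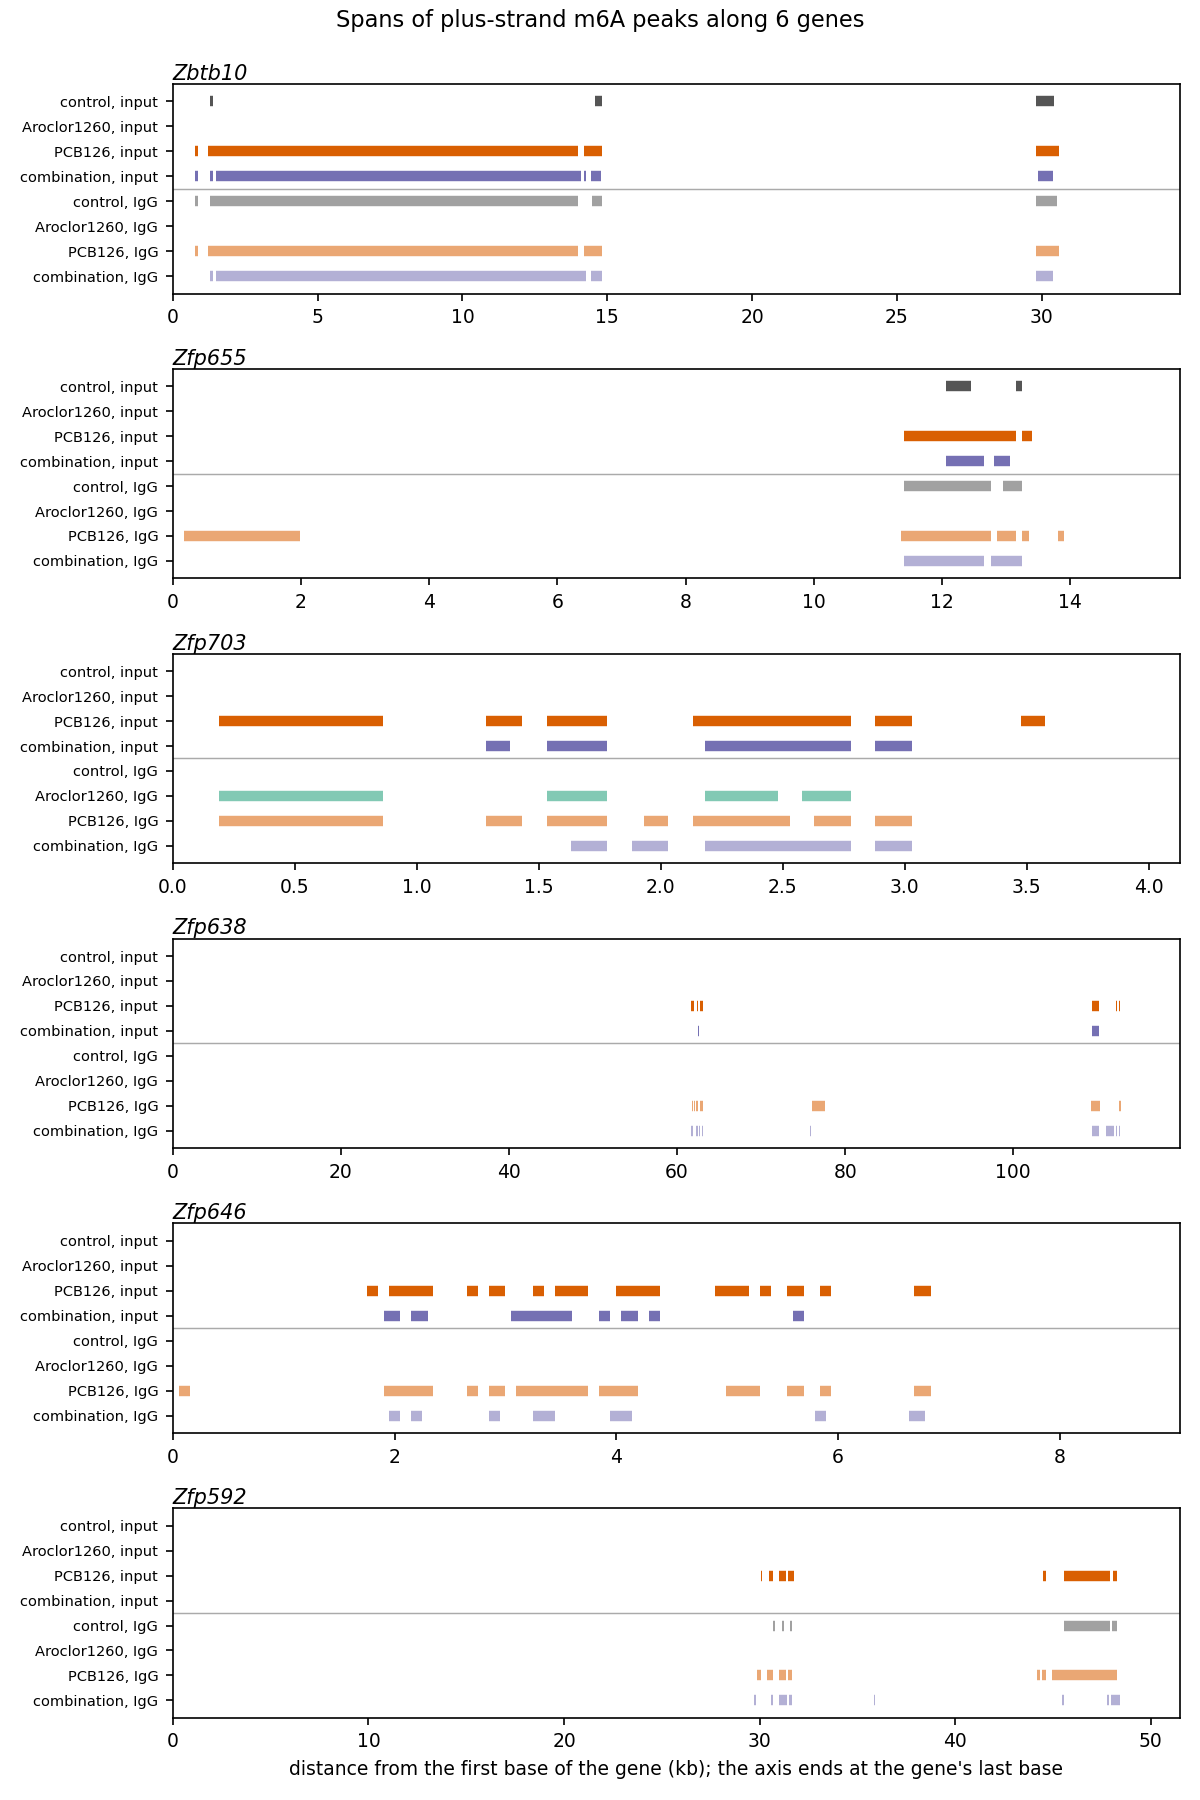
Spans of plus-strand peaks, introns included, along 6 genes (x axis, distance from the first base of the gene in kb) in the 8 lists (y axis); colours mark the treatment and pale bars the IgG reference. Zbtb10 and Zfp655 have no bar in either Aroclor1260 row, Zfp638 and Zfp646 have bars only in the PCB126 and combination rows, and Zfp592 is filled in the control only against IgG.

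The choice of reference decided several of the apparent gains. In the control, 7 members had a peak against both references and a further 7 against IgG only: Zbtb7a, Zbtb22, Zbtb39, Zfp592, Zfp639, Zfp707 and Zfp830. Over all loci, 226 had a control peak against both references and 371 against IgG only. Control peaks seen only against IgG were thus common in the whole lists and not particular to the members. Zbtb22 had 4 control peaks against IgG up to 6.00 and 0 against input, where it had 4 up to 6.18 after PCB126 and 4 up to 4.3 after the combination. Zfp592, whose protein belongs to a chromatin complex with Zmynd8, had 5 control peaks up to 4.00 against IgG and 7 up to 5.17 after PCB126 against input. In the combination it had 8 peaks up to 9.6 against IgG and 0 against input. Zfp707, a KRAB gene, had control folds up to 4.6 against IgG, and input folds of 5.56 after PCB126 and 5.4 after the combination. Zfp639 and Zfp830, the latter linked to pre-mRNA splicing, had control folds of 3.6 and 4.6 against IgG. Against input, PCB126 gave 3.71 at Zfp639 and 4.00 at Zfp830. Apart from Zbtb39, which had no input peak, these loci were gained against input but not against IgG.

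A few members were seen with 1 reference only. Against input 4 members (11.8%) had no peak, beside 36.4% of all loci, and against IgG 1 (2.94%) had none, beside 2.33%. Zbtb39 had 5 peaks up to 5.00 in the control and 4 up to 8.0 in the combination against IgG. Zfp180, Zfp263 and Zfp318 had peaks only after PCB126 against IgG, 3 up to 4.6, 5 up to 8.2 and 8 up to 5.00. Zfp318 encodes a nuclear protein that allows IgD expression in B cells. Zfp568 encodes a KRAB protein that represses a placental Igf2 transcript, and had 4 peaks up to 4.78 after PCB126 against input and 0 against IgG. Of the 34 members, 18 (52.9%) had the same pattern of presence over the 4 treatments with both references. This share was not computed over all loci, so it cannot be read as particular to the members.

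At the level of single peaks, member peaks of the control were mostly found again after PCB126 and the combination. Of the 19 control peaks against input, 17 (89.5%, 68.6 to 97.1%) had an overlapping peak after PCB126 and 17 after the combination, beside 88.2% and 87.4% of all control peaks. After Aroclor1260, 14 (73.7%, 51.2 to 88.2%) were found, beside 50% (46.1 to 53.9%) of all. Against IgG the shares of 45 member peaks were 42.2% (29.0 to 56.7%) for Aroclor1260, 86.7% for PCB126 and 95.6% for the combination, beside 56.8%, 79.4% and 74.6% of all. The members thus stood above all peaks after Aroclor1260 with input and below them with IgG. Wilson 95% intervals are given, which cover only counting error, and adjacent peaks of 1 gene share their reads' source. With a reciprocal overlap of 50% the input shares were 47.4%, 31.6% and 78.9% for Aroclor1260, PCB126 and the combination, beside 35.3%, 45.6% and 49.7% of all control peaks. Under that rule the members were below all peaks with PCB126 and above them with the other exposures. Their intervals were 27.3 to 68.3% for Aroclor1260, 15.4 to 54.0% for PCB126 and 56.7 to 91.5% for the combination. The Aroclor1260 and PCB126 intervals contained the share of all control peaks. Among the 97 PCB126 peaks of members against input, 86.6% (78.4 to 92.0%) overlapped no control peak, beside 79.3% of all. With the combination the share was 74.2% beside 79.6%, and with Aroclor1260 36% beside 36.4%. Against IgG the shares were 71.9% beside 64.2% with PCB126, 54.9% beside 59.7% with the combination and 40% beside 41.1% with Aroclor1260.

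Merging overlapping peaks of each identifier over the 8 lists gave 133 regions. Of these, 49 were found in 1 list, 28 in 2 and 5 in all 8, and 28 had a control peak with either reference. Regions were not merged for the other loci, so these counts have no background and cannot be read as particular to the members. Peaks of a single block made up 88.7% of member peaks after PCB126 and 87.1% after the combination against input, beside 73.6% and 72.5% of all peaks. In the control and after Aroclor1260 they made up 78.9% and 80%, beside 82.1% and 80.6%. Against IgG the single-block share of members was above that of all peaks in every treatment, with 86.7% beside 68.3% in the control, 85% beside 68.2% with Aroclor1260, 82.6% beside 66.3% with PCB126 and 89.0% beside 69.6% with the combination. The median exonic length of a member peak was 346 bp in the control list, 149 bp with Aroclor1260, 199 bp with PCB126 and 249 bp with the combination, beside 200 or 201 bp for all peaks.

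In 7 of the 8 lists the median member peak lay less far towards the end of the gene than the median of all peaks. On a scale from 0 at the first base of the gene span to 1 at the last, introns included, their median position on the plus strand was 0.640 (0.588 to 0.758) after PCB126 and 0.616 (0.518 to 0.724) after the combination against input. The comparison set, called all peaks here, was all plus-strand peaks of identifiers with a symbol. In the same lists it had 0.780 (0.761 to 0.792) and 0.797 (0.781 to 0.816). Naming did not use strand, so a plus-strand peak placed in a minus-strand gene would be scaled in reverse. In the control list the medians were 0.780 (0.444 to 0.958) for 19 member peaks and 0.775 for all, with a wide member interval. With Aroclor1260 the members had 0.549 (0.474 to 0.825) beside 0.764 (0.713 to 0.807) against input, and 0.582 (0.485 to 0.721) beside 0.755 (0.736 to 0.772) against IgG. The other IgG medians were 0.709 beside 0.777 in the control, 0.684 beside 0.782 with PCB126 and 0.634 beside 0.797 with the combination. The intervals of members and of all peaks overlapped in both control lists and in the Aroclor1260 input list, and were apart in the other 5. They take each peak as independent, but peaks cluster in genes and the same genes recur across lists. Zfp646 alone gave 12 of the 95 PCB126 peaks against input. All peaks also include the members, so the intervals are no test of a difference. Against input, the last 20% of the span held 29.2% of member peaks with Aroclor1260, 35.8% with PCB126 and 29.5% with the combination, beside 45.5%, 47.0% and 49.5% of all. Gene spans differ in intron length, and the place of coding and untranslated parts was not used here.

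**Figure D5:**
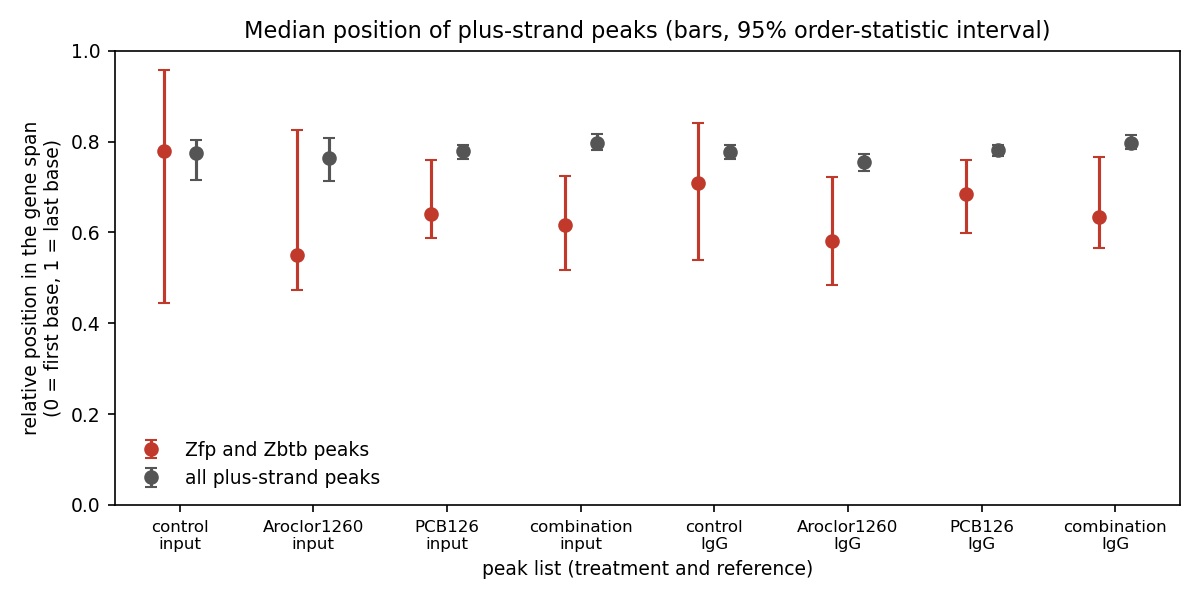
Median relative position of plus-strand peaks in the gene span (y axis, 0 is the first and 1 the last base) in each list (x axis), with 95% order-statistic intervals. Red is Zfp and Zbtb peaks and grey all peaks of identifiers with a symbol. Member medians are below those of all peaks in every list but the control input list, and the lowest are those of Aroclor1260, at 0.549 against input and 0.582 against IgG.

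Related genes were counted in the same way from lists chosen with earlier results of these data known. Over all 21900 protein-coding genes, 5.86% had a peak in any list. Since minus-strand genes almost never had one, the strands known from the promoter table are given. Of 74 other C2H2 zinc finger genes, among them the Klf and Sp families, 14 had a peak in any list, and 27 of the 74 were plus-strand and 28 minus-strand genes. Against input 13 had one with PCB126, 10 with the combination and 6 each in the control and with Aroclor1260. Of all 1419 loci with a peak in any list, 48.5%, 50.6%, 18% and 16.1% had one in those lists, in that order. Among the 27 plus-strand genes, 9 had a peak in any list. An own-strand peak was found at 11.2% of all plus-strand protein-coding genes. Of 17 CCCH zinc finger genes (11 plus, 6 minus), 3 had a peak. Of 12 cofactors of BTB proteins (6 plus, 3 minus), Bcorl1 and Chd4 had one, and of 8 cofactors of KRAB proteins (5 plus, 2 minus), Atf7ip and Morc3 did. The m6A machinery had 3 of 20 (5 plus, 10 minus), Ythdc1, Ythdf3 and Zc3h13. Of the hepatocyte markers (3 plus, 2 minus) 5 of 8 had a peak. Of the endothelial (0 plus, 3 minus), stellate (1 plus, 2 minus) and cholangiocyte markers (3 plus, 0 minus), 1 each of 6, 6 and 5 had one. The marker sets differ in strand, so their counts cannot be compared. Macrophage and lymphocyte markers had 0 of 6 and 0 of 5, but of the macrophage markers 0 were known plus-strand genes and of the lymphocyte markers 2, so these zeros cannot be read. Peaks are no measure of expression, and the part of other liver cells in the members' peaks was not tested.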

How the data were processed

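Liver RNA of 4 treatment groups was immunoprecipitated for m6A. Per the submitters' processing notes, reads were handled with BWA 0.7.17 and Trimmomatic, FastQC 0.10.1 and bcl2fastq 2.20.0.422, on mouse build mm10. The file titles name the peak caller MeTPeak; the sources used here give neither its version nor its settings. Per the file headers, the authors deposited for each peak a p-value, its log10, a log10 false discovery rate and a fold (linear ratio of m6A signal to reference). Each of the 8 lists covers a whole treatment.

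Identifiers were named by position in the RefSeq table of GRCm38.p6, the same build. Strand was not used in naming. A name required at least 80% of the exonic peak bases inside the gene, and the only protein-coding gene was taken where several qualified. This named 1398 of 1512 identifiers. Starts were shifted to count from 1. Peaks counted as shared if their spans had 1 bp or more in common on 1 strand. A locus was gained in an exposure with a peak there and none in the control, and lost in the opposite case. Gene strand came from the RefSeq promoter table. Calculations used Python 3.11.15, pandas 2.3.3 and scipy 1.17.1, and the naming, overlap and interval functions were tested on simulated data. Genes were named with values when they had peaks in all 8 lists, were gained or lost with both references, were found in 1 treatment only, ranked among the 5 highest folds of an input list or were among 16 examples. The members and lists were chosen with earlier results of these data known.

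Alternatives were the IgG reference, a fold of at least 2, a false discovery rate of at most 0.01, equal list lengths, naming with 50% of bases, plus-strand identifiers and a reciprocal overlap of 50%.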

Additional observations from a re-analysis of the deposited data

Results flagged for a closer look

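Peaks of 2 identifiers that overlap a Zfp gene entered none of the counts, since the naming rule left them without a symbol. ENSMUSG00000074406 has its peaks on chromosome 7 from 4918976 to 4920811, within Zfp628 and also within the span of a second protein-coding gene. It had 3 peaks after PCB126 against input and 5 against IgG, and 0 in the control. ENSMUSG00000075595 has 45.5% of its exonic peak bases within Zfp652 on chromosome 11. It had 6 peaks up to a fold of 6.5 in the combination against IgG, and 0 in the control.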

How the results depend on the processing

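No paired analysis was possible because each treatment has 1 peak list per reference, called over all its animals, and no value per animal, and for the same reason no replicate could be left out. With the IgG reference, loci with a peak became 14 in the control and 12 after Aroclor1260, lost loci 5 with Aroclor1260 and 1 with PCB126, and control peaks found after Aroclor1260 42.2%. With 506 peaks per list ranked by p-value, loci with a peak became 6 after PCB126 and 0 after the combination, gained loci 4 and 0, and control peaks found 23.5% and 0%. Lost loci became 1 with Aroclor1260, 4 with PCB126 and 6 with the combination. Ranked by fold instead, an alternative chosen after seeing the data, the PCB126 and combination lists had 15 and 13 loci, 10 and 8 gained, 2 and 2 lost, and 66.7% of control peaks found in each. List length therefore changed the counts of gained loci. A fold of at least 2 gave 100% of control peaks found after the combination, plus-strand identifiers gave 1 locus gained with Aroclor1260, and a reciprocal overlap of 50% gave 47.4% and 31.6% found after Aroclor1260 and PCB126. A false discovery rate of at most 0.01 and naming with 50% of bases left these counts within 1.5 times. Depth is unknown, so a locus without a peak was not detected, which does not show that it lacked m6A.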
